A study of Mus musculus with 4 samples.

Results

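The nuclear genes of the mitochondrial respiratory chain were examined in the mouse mammary carcinoma line 4T1, grown in culture with and without a knockdown of Ldha. The members were all genes whose symbol starts with Nduf, Uqcr or Atp5, or with Cox and a digit, plus Cyc1 and Cycs. They numbered 95 of the 22180 genes tested, of which 40 belong to complex I, 8 to complex III, 25 to complex IV and 17 to the ATP synthase; the rest are Cycs, the pair Ndufa4 and Ndufa4l2, and 2 pseudogene names. Of the 95, 9 read below 4.19 on the log2 scale in both groups, the level below which 95% of 1105 olfactory receptor genes lay, and this level is called the floor here.

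The shLDHA cells carried a short hairpin RNA against LDHA, the lactate dehydrogenase A subunit that turns pyruvate into lactate, and were a puromycin-resistant pool (10 µg/ml of the drug), so they are no single clone. The scramble cells carried a scrambled hairpin, and the sources used here do not say whether they too were selected, so selection and knockdown cannot be told apart. Both were grown for 24 hours before RNA was taken, and 400 ng of it went into the labelling for each Affymetrix whole-transcript array. Each group held 2 arrays, which limits the precision of every value, and nothing in the labels says that these stem from separate cultures. All p-values below thus rest on array-to-array spread alone, and that spread may be technical.

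The respiratory chain passes electrons from NADH through complex I, or from succinate and other donors, to ubiquinone, on through complex III to cytochrome c, and through complex IV to oxygen. The protons pumped on the way drive the ATP synthase. Most subunits are encoded in the nucleus and a core set in mitochondrial DNA, and dedicated assembly factors put the complexes together. NADH that is not used by lactate dehydrogenase can be oxidised by complex I.

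Ldha (probe set 17478225) read 6.31 and 6.15 on the shLDHA arrays, against 6.69 and 6.96 on the scramble arrays, which checks the labels (log2 change -0.59, SE 0.12, limma adjusted p = 0.0390). The call was lost without shLDHA replicate 1 (adjusted p = 0.0965), shLDHA replicate 2 (0.163) or scramble replicate 2 (0.128), and with the replicate number as a block (0.0734). All 6 epithelial markers lay above the floor, and Epcam (0.53) and Krt8 (0.47) were called higher in shLDHA. Krt7 (0.25), Krt18 (0.24) and Cdh1 (0.04) did not pass, nor did Krt19, which had a change of -0.33 (adjusted p = 0.0853). Their mean log2 level was 9.22 and 9.23 on the shLDHA arrays, against 9.03 and 9.02 on the scramble arrays. All 4 leukocyte markers tested, all 4 endothelial ones and 4 of 5 fibroblast ones were below the floor; the exception, Pdgfra, read 6.49 in shLDHA and 6.52 in scramble. The mean log2 level of the leukocyte markers was 3.003 and 2.95 in shLDHA, against 2.84 and 2.996 in scramble. Whether the epithelial markers bear on the results below was not tested, and in bulk RNA more cells of a type and more RNA per cell cannot be told apart.

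Of the respiratory chain genes, 5 passed the test. A gene was called where its Benjamini-Hochberg adjusted p over all 22180 genes, from a limma fit of shLDHA minus scramble, was under 0.05. Of the 95 members, 4 were called higher in shLDHA (Cox6a2, Ndufaf7, Ndufs1 and Cox15) and 1 lower (Ndufaf4). That is 5.26% of the members, beside 6.36% of all genes tested, of which 3.37% were called higher and 2.99% lower. Genes below the floor were rarely called, and they make up 11313 of all genes but 9 of the members. Among genes at or above the floor in either group, 5 of 86 members were called (5.81%), beside 12.1% of 10867 genes. A gene that missed the threshold with 2 arrays a group is not thereby shown to be unchanged. An unadjusted limma p under 0.05 was found for 27 members (28.4%), beside 21.5% of all genes. Among genes at or above the floor in either group it was found for 26 of 86 members, beside 3793 of 10867 genes. The counts at that threshold below are to be read against both shares, and against the latter where few genes lie below the floor. All members lay between -0.42 and 0.68 on the log2 scale. Of the 95, 66 changed by less than 0.2, beside 15925 of all 22180 genes. Among genes at or above the floor in either group, 59 of 86 members did so, beside 6444 of 10867 genes.

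The small differences leaned upward. The median log2 change of the members was 0.07, beside 0.01 over all genes tested. Of the 95 members, 65 (68.4%) had a positive change, beside 51.7% of all genes. The median level of the members overlapped between groups. It was 7.29 and 7.40 on the shLDHA arrays, against 7.37 and 7.39 on the scramble arrays. Both shLDHA arrays lay above both scramble arrays for 42 members (44.2%), beside 26.2% of all genes, and below both for 15 (15.8%), beside 24% of all genes. Among genes at or above the floor in either group, the shares were 46.5% of 86 members, beside 34.4% of genes, above and 16.3% of members, beside 31.8% of genes, below. The members share their arrays and are not replicates, so these shares carry no test. By complex, the median change was 0.05 in complex I, 0.10 in complex III, 0.10 in complex IV and 0.05 in the ATP synthase. The 71 tested genes of the mitochondrial ribosome, named Mrpl or Mrps, had a median of 0.00 and 0 calls by limma. Of these, 19 (26.8%) had an unadjusted limma p under 0.05, beside 21.5% of all genes. Only 3 of the 71 were below the floor, and 3793 of 10867 genes at or above it had such a p.

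**Figure D1:**
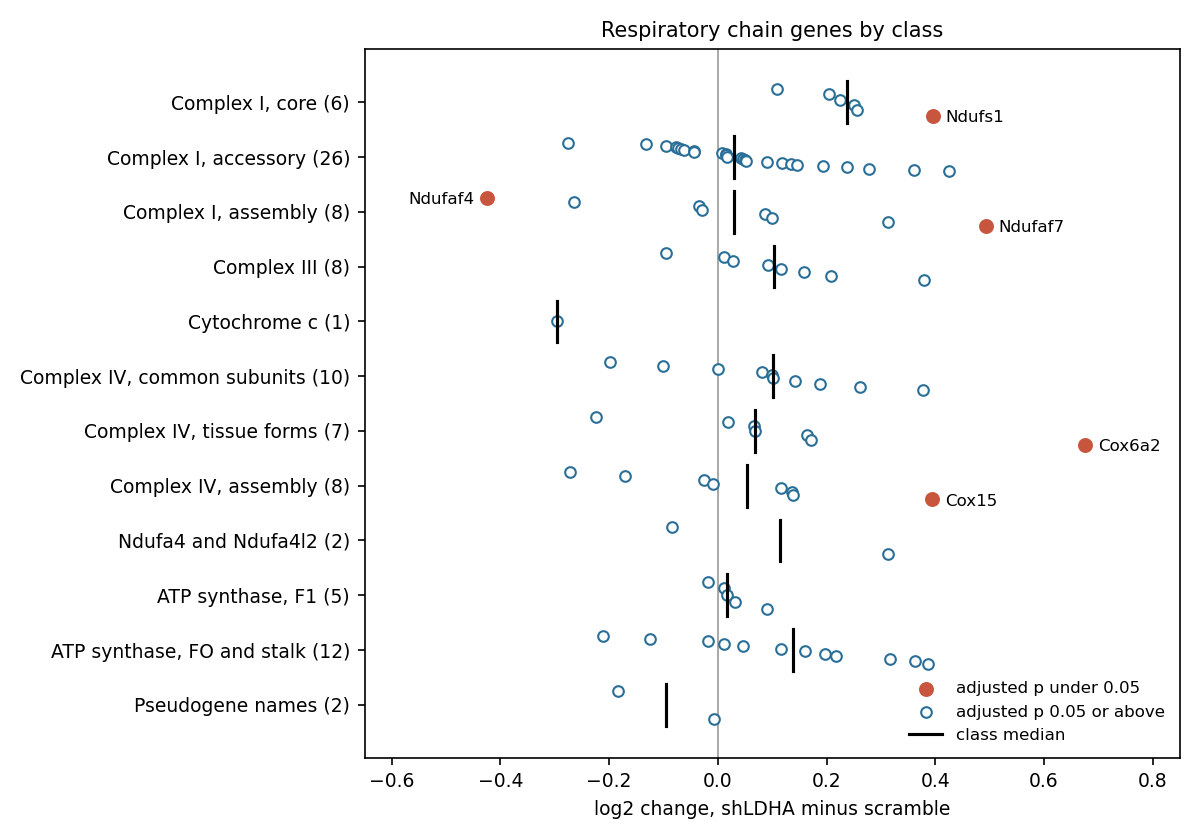
Log2 change (shLDHA minus scramble, x axis) of each of the 95 genes by class, with the number of genes in brackets; each point is a gene, filled where the limma adjusted p was under 0.05, and black lines are class medians. The 6 core subunits of complex I all lie to the right of 0, and the 5 filled points run from -0.42 (Ndufaf4) to 0.68 (Cox6a2).

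**Figure D2:**
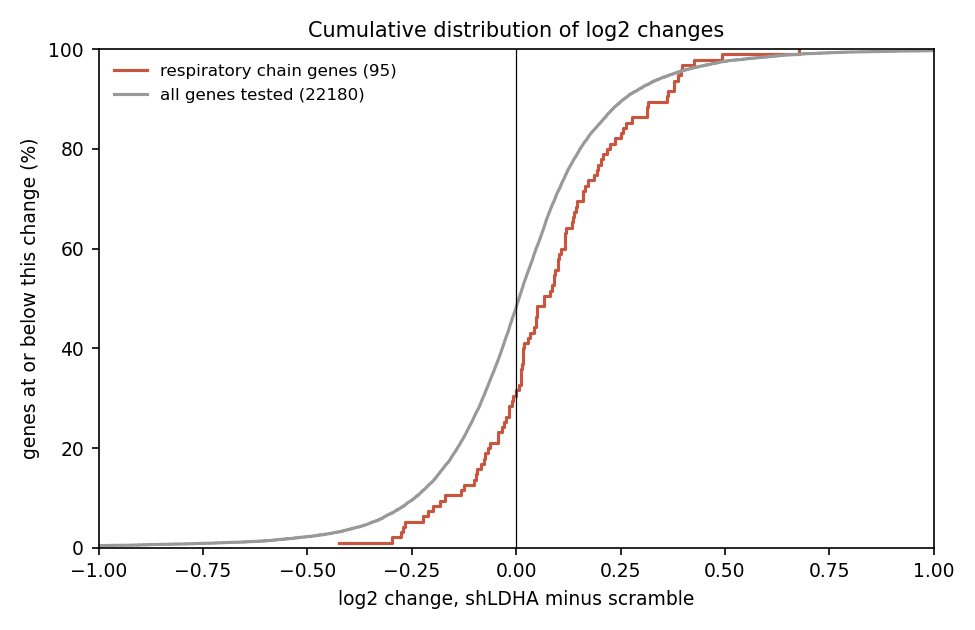
Cumulative share of genes (y axis, percent) at or below a given log2 change (x axis, shLDHA minus scramble) for the 95 respiratory chain genes and for all 22180 genes tested; changes past 1 in either direction are outside the axis. The curve of the respiratory chain genes runs to the right of the other over the middle of the range, with medians of 0.07 and 0.01.

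The number of calls differed between settings. Where the prior variance was allowed to follow the level of expression (limma's trend), 20 of the 95 members were called, 17 higher and 3 lower, which is 21.1% of them beside 12.7% of all genes. With only the genes at or above the median level, 15 of 87 were called, 12 higher and 3 lower (17.2%, beside 25.1% of the genes kept). Without scramble replicate 2, Cox6a2 alone was called by limma, and no member was without any of the other arrays.

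Promoter sequence is shown for the called members with an entry in RefSeq's promoter table (build GRCm38.p6) and for Cycs, because all of its probe sets read lower. Each sequence runs 5′ to 3′ on the gene's own strand and covers the 250 bases before the start; capitals mark a match to one of 4 motifs that are known for nuclear genes of mitochondrial proteins. The motifs, searched on both strands, were NRF1 (GCGCANGCG), the ETS motif bound by GABPA (CCGGAAGT), YY1 (AANATGGCG) and ERR (TCAAGGTCA).
Ndufaf7, chr17:78936885-78937134, plus strand: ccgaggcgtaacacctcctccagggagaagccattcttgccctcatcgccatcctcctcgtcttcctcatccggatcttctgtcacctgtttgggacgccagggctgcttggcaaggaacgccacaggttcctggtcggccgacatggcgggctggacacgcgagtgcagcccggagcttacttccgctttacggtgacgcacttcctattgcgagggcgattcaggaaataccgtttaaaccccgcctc
Ndufaf4, chr4:24897833-24898082, plus strand: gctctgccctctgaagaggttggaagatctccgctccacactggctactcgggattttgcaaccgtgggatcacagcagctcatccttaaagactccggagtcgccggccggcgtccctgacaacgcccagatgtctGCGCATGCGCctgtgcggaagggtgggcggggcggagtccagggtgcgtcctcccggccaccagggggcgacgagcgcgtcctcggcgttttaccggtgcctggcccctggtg
Cycs, chr6:50566570-50566819, minus strand: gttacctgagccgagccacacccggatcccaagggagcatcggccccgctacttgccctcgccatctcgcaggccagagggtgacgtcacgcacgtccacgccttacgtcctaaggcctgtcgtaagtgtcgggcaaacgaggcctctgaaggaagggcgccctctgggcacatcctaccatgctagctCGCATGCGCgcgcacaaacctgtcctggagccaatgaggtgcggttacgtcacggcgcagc

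For Cox15 the only match, to the ETS motif, lay past the start, and the 30 bases around it are given in place of the promoter. The promoters of Ndufs1 and Cox6a2 are not shown.
Cox15, chr19:43752974-43753003, minus strand: gacgcctgacCCGGAAGTgcttgttctttc

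The Ndufaf4 promoter holds the NRF1 letters on both strands, as 2 overlapping matches, the Cycs promoter holds them on the strand opposite to the gene, and the printed Ndufaf7 stretch holds no match. Of the 95 members, 76 had an entry of 250 bases before to 50 after the start. NRF1 letters were found in 19 of the 76 (25%), beside 9.69% of the 16990 tested genes with an entry and 7.03% of all 27025 symbols in the table. The ETS letters were found in 9 members (11.8%, beside 5.62% of tested genes and 4.31% of the table), the YY1 letters in 11 (14.5%, beside 3.65% and 2.76%) and the ERR letters in 1 (1.32%, beside 0.365% and 0.466%). The median log2 change was 0.02 over the 19 members with NRF1 letters and 0.10 over the others with an entry. With the YY1 letters it was 0.01 and without them 0.09. For the ETS letters the order was the opposite, 0.12 with and 0.07 without them. A match describes letters and not binding, and 40 of the 76 members held none of the 4 motifs.

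Complex I takes electrons from NADH and hands them to ubiquinone. All 6 of its tested core subunits encoded in the nucleus read higher on both shLDHA arrays than on both scramble arrays. Their median log2 change was 0.24. That order of the arrays was found for 26.2% of all genes and 34.4% of genes at or above the floor in either group. The 6 genes share their arrays and are not replicates. Only Ndufs1 was called. Ndufs1 (probe set 17223685), the largest core subunit and carrier of several iron-sulfur clusters, read 8.89 and 8.82 in shLDHA, against 8.44 and 8.48 in scramble. The means were 8.85 ± 0.05 and 8.46 ± 0.03 (SD, n = 2 each), a log2 change of 0.40 (SE 0.08), 1.32-fold higher, with a limma adjusted p of 0.0446.

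The other core subunits did not pass. Ndufv1, which binds NADH and the flavin, read 7.89 and 7.98 in shLDHA, against 7.74 and 7.62 in scramble (log2 change 0.25, adjusted p = 0.177). Ndufv2, which holds an iron-sulfur cluster beside it, read 9.09 and 9.25, against 8.98 and 8.85 in scramble (0.26, adjusted p = 0.202). Ndufs8, another iron-sulfur subunit, read 8.27 and 8.30 in shLDHA, against 8.09 and 8.04 in scramble (0.22, adjusted p = 0.181). In each of these 3 the groups did not overlap, and the log2 change was under 0.3. Ndufs3 changed by 0.20 and Ndufs7, which holds the cluster next to ubiquinone, by 0.11. The class median was 0.19 without scramble replicate 2 or without shLDHA replicate 2, and 0.32 without shLDHA replicate 1.

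The 26 accessory subunits of complex I, which surround the core and stabilise it, moved in both directions, with 17 positive and 9 negative changes, a median of 0.03 and 0 calls by limma, against 5 at an unadjusted p under 0.05. The smallest p belonged to Ndufb3, a small subunit of the membrane arm, at 5.83 and 6.04 in shLDHA, against 5.53 and 5.49 in scramble (log2 change 0.43, adjusted p = 0.0626). Ndufa10 read 9.74 and 9.87 in shLDHA, against 9.46 and 9.43 in scramble (0.36, adjusted p = 0.0680). These gaps were wider than the spread within each group and still missed the threshold over all genes. Ndufb9 had a change of 0.24 and Ndufb7 one of -0.28, so subunits of the same membrane arm stood on opposite sides. Both shLDHA arrays were above both scramble arrays for 8 of the 26 and below both for 6. These orders were found for 26.2% and 24% of all genes, and for 34.4% and 31.8% of genes at or above the floor.

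The assembly factors of complex I held the call with the second largest change and the only fall. Ndufaf7 (probe set 17339864), a methyltransferase of the mitochondrial matrix, read 6.71 and 6.80 in shLDHA, against 6.26 and 6.27 in scramble. The log2 change was 0.49 (SE 0.08), 1.41-fold higher, with an adjusted p of 0.0241. Ndufaf4 (probe set 17412272), which acts at an early step of assembly together with Ndufaf3, read 7.31 and 7.40 in shLDHA, against 7.85 and 7.71 in scramble. It fell by 0.42 on the log2 scale (SE 0.09), 1.34-fold, with an adjusted p of 0.0483. Its partner Ndufaf3 changed by 0.10 with overlapping groups. Ndufaf1 had a change of 0.31 (adjusted p = 0.182) and Ndufaf5, which in human cells modifies the core subunit NDUFS7, one of -0.27 (adjusted p = 0.173). Of the 8 factors, 4 had positive and 4 negative changes.

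None of these calls held with 3 arrays, where the lone array of a group is assumed to vary like the other group and only 1 residual degree of freedom is left. With 1 array left out at a time, the log2 changes ran from 0.36 to 0.43 for Ndufs1, from 0.44 to 0.54 for Ndufaf7 and from -0.49 to -0.36 for Ndufaf4. The adjusted p of Ndufs1 ran from 0.121 to 0.175, that of Ndufaf7 from 0.0768 to 0.115 and that of Ndufaf4 from 0.0925 to 0.199. With the replicate number as a block, the adjusted p was 0.0889 for Ndufs1, 0.0529 for Ndufaf7 and 0.0927 for Ndufaf4.

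**Figure D3:**
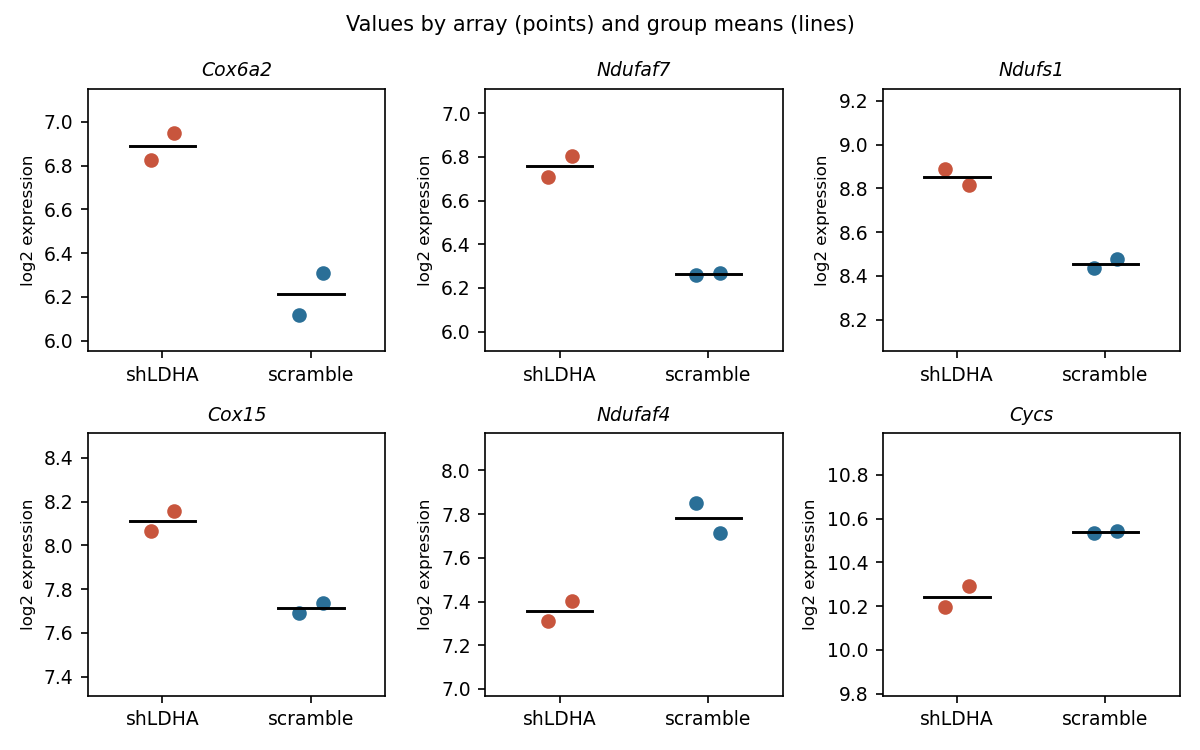
Log2 expression (y axis, the same span of 1.2 in every panel) on the 2 shLDHA and 2 scramble arrays for the 5 called genes and Cycs; points are arrays and lines group means. In every panel the groups do not overlap, with shLDHA above scramble for Cox6a2, Ndufaf7, Ndufs1 and Cox15 and below it for Ndufaf4 and Cycs.

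Of 10 assembly factors of complex I whose names lie outside the rule, 1 was called higher and 1 lower. That is 20%, beside 6.36% of all genes and 12.1% of genes at or above the floor. The 10 had 6 positive changes and a median of 0.11. Nubpl, which delivers iron-sulfur clusters to complex I, read 5.66 and 5.81 in shLDHA, against 4.86 and 5.20 in scramble (log2 change 0.70, SE 0.13, adjusted p = 0.0305). Timmdc1, a factor for the membrane arm, read 8.15 and 8.23 in shLDHA, against 8.63 and 8.56 in scramble (-0.41, SE 0.09, adjusted p = 0.0439). Over both sets of factors, then, the called genes were Ndufaf7 and Nubpl among the rises and Ndufaf4 and Timmdc1 among the falls. Without 1 array, the adjusted p of Nubpl ran from 0.0147 (without scramble replicate 2) to 0.139, past 0.05 without any of the other 3, and that of Timmdc1 from 0.119 to 0.180.

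Mitochondrial DNA supplies the other core subunits of complex I and those of complexes III, IV and the ATP synthase. Of 13 such genes, 10 were tested under the platform's symbols, and 1 was called. That is 10%, beside 6.36% of all genes and 12.1% of genes at or above the floor. ND6, a membrane subunit of complex I and the only protein gene on the light strand of mitochondrial DNA, read 10.59 and 10.64 in shLDHA, against 10.13 and 10.01 in scramble. Its log2 change was 0.54 (SE 0.09), with an adjusted p of 0.0204. The other 9, all transcribed from the heavy strand, lay between -0.04 and 0.10, with ND3 at 0.10 (adjusted p = 0.592). The 9 gave 0 calls by limma and 0 at an unadjusted p under 0.05, and 5 of them had overlapping groups. They read 11.61 to 12.77, close to the highest value of any probe set, 12.91, and above ND6, and the part of that position in the result was not tested. ND6 kept its call without scramble replicate 1 (adjusted p = 0.0468) and lost it without scramble replicate 2 (0.0929), shLDHA replicate 1 (0.0813) or shLDHA replicate 2 (0.101).

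**Figure D4:**
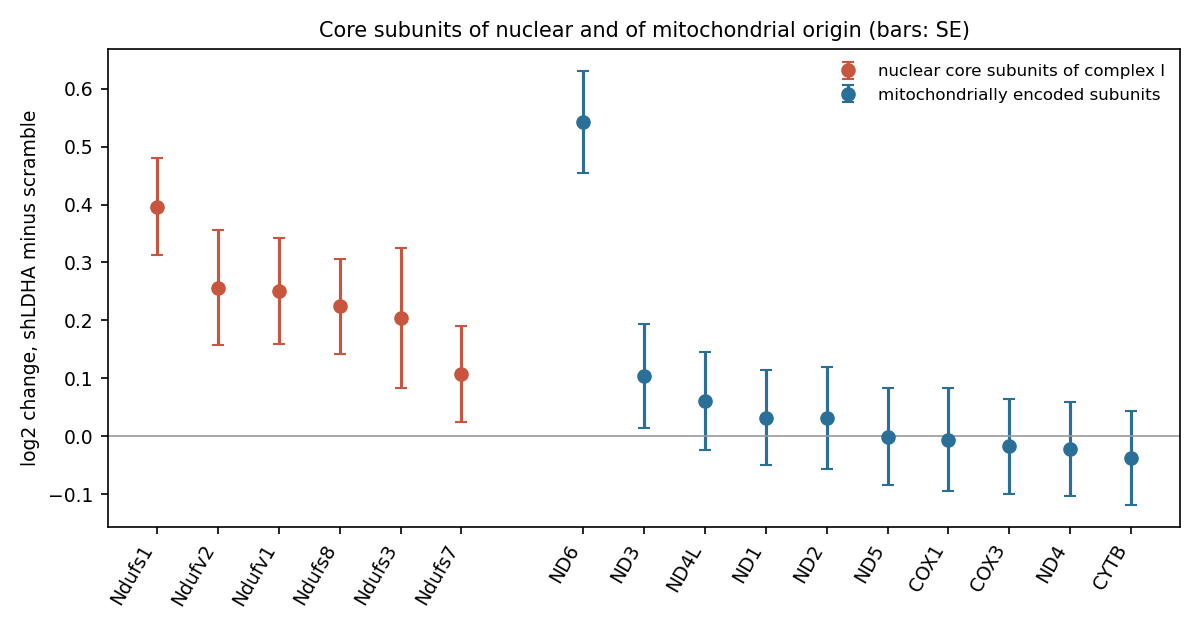
Log2 change (y axis, shLDHA minus scramble) with its SE as bars for the 6 tested nuclear core subunits of complex I and the 10 tested mitochondrially encoded subunits (x axis). The nuclear subunits lie between 0.11 and 0.40, ND6 at 0.54 and the other 9 mitochondrial subunits between -0.04 and 0.10.

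Complex II, which feeds electrons from succinate to ubiquinone, was measured by its 4 subunit genes and 4 assembly factors, from a list outside the rule. None of the 8 was called by limma, and 1 had an unadjusted p under 0.05. That was Sdhc, a membrane anchor, at 8.16 and 8.34 in shLDHA, against 8.01 and 7.92 in scramble (log2 change 0.29, adjusted p = 0.155). Sdhb, the iron-sulfur subunit, had a change of 0.15. The list median was 0.13.

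Among other routes into ubiquinone, 6 of 7 changes were negative, with a median of -0.19 and 1 call. That is 14.3%, beside 6.36% of all genes and 12.1% of genes at or above the floor. Prodh, the proline dehydrogenase that passes electrons from proline to the chain, read 6.33 and 6.27 in shLDHA, against 6.82 and 6.80 in scramble (log2 change -0.51, SE 0.08, adjusted p = 0.0204). Gpd2, the mitochondrial glycerol 3-phosphate dehydrogenase, had a change of -0.26 (adjusted p = 0.165). For 5 of the 7 both shLDHA arrays lay below both scramble arrays. That pattern was found for 24% of all genes and 31.8% of genes at or above the floor. Among 12 genes of ubiquinone synthesis 1 was called (8.33%, beside 6.36% of all genes and 12.1% of genes at or above the floor). Coq10b, which encodes a ubiquinone-binding protein, read 7.55 and 7.61 in shLDHA, against 8.31 and 8.26 in scramble (-0.70, SE 0.08, adjusted p = 0.00755). The other synthesis genes did not pass, with Coq9 at -0.26 (adjusted p = 0.143). Prodh lost its call without each array in turn (adjusted p from 0.0746 to 0.101), and Coq10b without shLDHA replicate 1 (0.0502).

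Complex III moves electrons from ubiquinone to cytochrome c. Of its 8 tested genes 7 had positive changes, with a median of 0.10, and none was called by limma; 1 had an unadjusted p under 0.05. Uqcrh, the hinge protein near cytochrome c1, read 6.91 and 6.89 in shLDHA, against 6.62 and 6.43 in scramble (log2 change 0.38, adjusted p = 0.0785). Uqcrc2, a core protein of the matrix side, had a change of 0.21, Uqcrb one of 0.16 and Uqcrfs1, the Rieske iron-sulfur protein, one of 0.12. Cyc1, the cytochrome c1 that hands electrons to cytochrome c, read 7.29 and 7.42 in shLDHA, against 7.36 and 7.30 in scramble (0.03, adjusted p = 0.905), and its groups overlapped. Of 6 assembly factors of complex III outside the rule none was called either, with 1 at an unadjusted p under 0.05, and Lyrm7 had the smallest p (-0.33, adjusted p = 0.138).

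Cycs, the somatic cytochrome c that carries electrons between complexes III and IV and also triggers caspases when it leaves mitochondria, stood lower in shLDHA without passing the test. Its brightest probe set (17445624) read 10.19 and 10.29 in shLDHA, against 10.54 and 10.54 in scramble (log2 change -0.30, SE 0.08, adjusted p = 0.103). The array carries 5 probe sets with this symbol, 2 of which hold identical values. All 5 had both shLDHA arrays below both scramble arrays, with changes from -0.42 to -0.30. Tested among all probe sets with a single symbol, 1 of the 5, a dim one at 4.48 and 4.52 in shLDHA, against 4.96 and 4.89 in scramble, passed (adjusted p = 0.0395). Cytochrome c has processed pseudogenes in the mouse, and how far these probe sets share targets was not tested.

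Complex IV, cytochrome c oxidase, holds most of its nuclear subunits in a common form and some also in forms restricted to heart and skeletal muscle, lung or testis. Of the 10 common subunits none was called by limma, 2 had an unadjusted p under 0.05, and the median was 0.10. Cox5b, a regulatory subunit that binds zinc, read 8.32 and 8.43 in shLDHA, against 7.95 and 8.05 in scramble (log2 change 0.38, adjusted p = 0.0637). Cox7a2 read 7.99 and 7.97 in shLDHA, against 7.72 and 7.72 in scramble (0.26, adjusted p = 0.123). Cox5a, a subunit on the matrix side, had a change of the opposite sign, at 8.80 and 8.88 in shLDHA, against 9.04 and 9.04 in scramble (-0.20, adjusted p = 0.237). Cox4i1, the common form of the largest nuclear subunit, read 8.92 and 8.90 in shLDHA, against 8.87 and 8.94 in scramble, and its change was 0.00 (SE 0.08).

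The tissue forms held the largest change of all 95 genes. Cox6a2 (probe set 17496857), the heart and muscle form of subunit 6A, read 6.83 and 6.95 in shLDHA, against 6.12 and 6.31 in scramble. The means were 6.89 ± 0.09 and 6.21 ± 0.13 (SD, n = 2 each), a log2 change of 0.68 (SE 0.10), 1.60-fold higher, with an adjusted p of 0.0161. Its common counterpart Cox6a1 read 11.94 and 12.01 in shLDHA, against 11.87 and 11.92 in scramble (0.08, adjusted p = 0.661). Cox6a2 passed in 10 of 13 alternative settings and missed without scramble replicate 1 (adjusted p = 0.0590), shLDHA replicate 1 (0.0612) or shLDHA replicate 2 (0.0891). In RefSeq the integrin gene Itgad overlaps Cox6a2, and Itgad had a change of 0.03.

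The other tissue forms were at or near the floor. Cox4i2, the lung form, had means of 4.30 in shLDHA and 4.13 in scramble, on either side of the floor (log2 change 0.17, adjusted p = 0.314). Cox7a1 and Cox8b, both of heart and muscle, and Cox6b2, Cox7b2 and Cox8c, known from testis, were below it in both groups, with changes from -0.22 to 0.16, so their values bear on no difference. The supercomplex factor Cox7a2l, which tethers complexes III and IV, read 6.28 and 6.47 in shLDHA, against 6.20 and 6.18 in scramble (0.19, adjusted p = 0.340). The common forms Cox6b1 and Cox8a each changed by 0.10.

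Of the 8 assembly factors of complex IV, Cox15 was called. Cox15 (probe set 17364954), which makes haem A from haem O for the catalytic subunit, read 8.06 and 8.16 in shLDHA, against 7.69 and 7.74 in scramble. The log2 change was 0.39 (SE 0.09), 1.31-fold higher, with an adjusted p of 0.0474. Cox10, which makes the haem O that Cox15 uses, changed by -0.02 (adjusted p = 0.936). Cox18, which inserts a mitochondrially encoded subunit into the membrane, had a change of -0.27 (adjusted p = 0.169), and the copper chaperone Cox17 one of -0.17. With the arrays centred on their medians the adjusted p of Cox15 was 0.0569, with every probe set tested it was 0.0505, with the replicate block it was 0.0832, and without 1 array it ran from 0.110 to 0.181. In RefSeq Cox15 lies beside Cutc (-0.36, adjusted p = 0.111) and overlaps Entpd7 (0.42, adjusted p = 0.124), neither of which passed; these neighbours were looked up after the values were seen.

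Among 17 tested assembly factors of complex IV outside the rule, 1 was called and it was lower. That is 5.88%, beside 6.36% of all genes and 12.1% of genes at or above the floor. Higd1a, a hypoxia-induced protein that binds complex IV, read 6.01 and 6.003 in shLDHA, against 6.54 and 6.40 in scramble (log2 change -0.46, SE 0.09, adjusted p = 0.0351). Hccs, which the list includes although it attaches haem to cytochromes c and c1, had a change of -0.33 (adjusted p = 0.0759). The list had 9 positive and 8 negative changes. The Higd1a call was lost without each array in turn (adjusted p from 0.0672 to 0.154).

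Ndufa4, named for complex I but now assigned to complex IV, read 10.11 and 10.17 in shLDHA, against 9.81 and 9.84 in scramble (log2 change 0.31, adjusted p = 0.0846). Its hypoxia-induced relative Ndufa4l2 was below the floor in both groups, at 2.94 and 2.50 in shLDHA, against 2.83 and 2.78 in scramble.

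The ATP synthase uses the proton gradient to make ATP. None of its 17 tested genes was called by limma, and 6 had an unadjusted p under 0.05. The changes of the 5 subunits of the catalytic head, F1, ran from -0.02 to 0.09, with none at an unadjusted p under 0.05. Atp5b, the catalytic beta subunit, read 11.82 and 11.77 in shLDHA, against 11.75 and 11.82 in scramble (0.01), and Atp5a1, the alpha subunit, read 10.41 and 10.40, against 10.37 and 10.38 in scramble (0.03). The rotor subunit gene Atp5c1 changed by 0.02. These are values of the brightest probe sets. A second set of Atp5d, the delta subunit, read 6.89 and 6.92 in shLDHA, against 7.35 and 7.14 in scramble (log2 change -0.34, adjusted p = 0.109), where the brighter set gave -0.02. With the mean of both sets its change was -0.18.

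The 12 subunits of the membrane part and the stalk spread more widely, from -0.21 to 0.39, with a median of 0.14 and 9 positive changes. Atp5k, the subunit e that helps the enzyme form dimers, read 7.03 and 7.05 in shLDHA, against 6.70 and 6.65 in scramble (log2 change 0.36, SE 0.08, adjusted p = 0.0548). Atp5j2, the subunit f, read 4.44 and 4.40 in shLDHA, against 4.12 and 3.95 in scramble, close to the floor (0.39, adjusted p = 0.0659). Atp5j, the coupling factor F6 of the stalk, had a change of -0.21 (adjusted p = 0.204). The proton-carrying c ring is made from 3 genes whose mature proteins are the same. Of these, Atp5g1 was below the floor in both groups (3.63 and 3.75 in shLDHA, against 3.38 and 3.36 in scramble), Atp5g2 had a change of 0.22 (adjusted p = 0.193), which its second probe set gave as 0.23, and Atp5g3 one of 0.01. Of 4 ATP synthase factors outside the rule none was called by limma, with 0 at an unadjusted p under 0.05.

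Of the 95 members, 10 have more than 1 probe set, which adds 13 readings. Of the 13, 2 had the opposite sign to the brighter set and 1, of Cycs, was called. The opposite signs were those of Cox7b (0.14 on the brighter set, -0.34 on a dim one) and Ndufa8 (0.05 and -0.03). A further 11 probe sets carry several symbols, at least 1 of which fits the rule, and these were left out with 10 symbols found nowhere else.

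Regulators of nuclear genes for mitochondria were measured as well. None of 8 was called by limma, and 1 had an unadjusted p under 0.05. That was Pprc1, a growth-regulated relative of the PGC-1 coactivators, at 7.67 and 7.60 in shLDHA, against 7.93 and 7.96 in scramble (log2 change -0.31, adjusted p = 0.0903). Ppargc1a, the coactivator PGC-1 alpha, was below the floor in both groups, and Ppargc1b changed by 0.02. The transcription factor genes Nrf1 (0.12), Gabpa (-0.13), Yy1 (0.01) and Esrra (0.07), whose motifs were searched above, did not pass.

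Of 11 genes that keep and transcribe mitochondrial DNA, 1 was called. That is 9.09%, beside 6.36% of all genes and 12.1% of genes at or above the floor. Tfb2m, a factor that the mitochondrial RNA polymerase needs to start, read 7.76 and 7.80 in shLDHA, against 7.35 and 7.35 in scramble (log2 change 0.43, SE 0.08, adjusted p = 0.0325). Tfam, which packages mitochondrial DNA and helps to start its transcription, read 6.70 and 7.05 in shLDHA, against 6.53 and 6.26 in scramble (0.48, SE 0.15, adjusted p = 0.123). The 2 shLDHA arrays differed by more for Tfam than for Tfb2m. Mgme1, a nuclease of mitochondrial DNA, had a change of 0.37 (adjusted p = 0.0702) and Mterf3, a repressor of its transcription, one of -0.33 (adjusted p = 0.0730). With the mean of its 3 probe sets the log2 change of Tfb2m was 0.25 (adjusted p = 0.141). It also lost its call with the replicate block (0.0683) and without each array in turn (adjusted p from 0.103 to 0.133).

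Inner membrane carriers and the proteins that shape and police the inner membrane gave no call by limma. Of 6 carriers 0 had an unadjusted p under 0.05, and 3 were below the floor in both groups. Their changes lay between -0.03 and 0.11, with Slc25a3, the phosphate carrier, at 0.09. The value of 0.11 was that of Slc25a31, one of those below the floor. Of 18 genes for membrane organisation and quality control 1 had an unadjusted p under 0.05, the protease gene Clpp (-0.34, adjusted p = 0.130). Over all 117 tested genes of the 12 lists that are not members, 3 were called higher and 4 lower, with a median change of 0.02. That is 5.98%, beside 6.36% of all genes and 12.1% of genes at or above the floor. Of the 117, 7 were below the floor.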

How the data were processed

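The authors deposited log2 expression values per probe set for 4 arrays, and the submitters' processing notes name RMA and R 3.4.0. The sources used here give neither the RMA options nor the annotation version. Values ran from 1.23 to 12.91. A platform annotation table named 1 gene for 23521 of 41345 probe sets, and these entered; 1814 carry several symbols and 16010 have no symbol. The brightest probe set per gene was kept, leaving 22180 genes, with no filter on dim genes. All 95 members matched the RefSeq gene table (GRCm38.p6) with the same symbol. The sources used here do not name the platform's build, so coordinates belong to the printed promoters only.

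shLDHA was set against scramble with limma 3.58.1 (R 4.3.3) over all 4 arrays with no covariate, two-sided, at an adjusted p under 0.05. The fit had 2 residual and 4.52 prior degrees of freedom, and 0 columns of values were left out. Depth does not apply to arrays. Simulated data with known changes were used to test the fit, in 10 runs with 200 changed genes each, fewer than the 1410 called here. The fit called 6.6% of simulated log2 changes of 0.5 and 90.3% of those of 1, and 5.56% of its calls were false.

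The members and lists were chosen with earlier results of these data known. The text names every called gene, up to 4 members per class and 2 per list by smallest p, fixed isoform groups and regulators. Other names (Ndufs3, Ndufs7, Ndufaf3, Ndufa8, Cox7b, Cox7b2, Cox10, Atp5b, Atp5j, Mterf3, Yy1 and the neighbours) were added after their values were seen. Alternatives were a replicate block, level filters, other normalizations and probe set rules, trend or robust variances, leaving out each array and a threshold of 0.1. Figures used matplotlib 3.10.9.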

Additional observations from a re-analysis of the deposited data

How the results depend on the processing

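The labels number the arrays 1 and 2 in each group. Across genes, the deviations of same-numbered arrays from their group means had a correlation of r = -0.03. Whether same-numbered arrays were handled together was not tested. With the replicate block 1 member was called (1.05%), 1 higher and 0 lower, beside 838 of all genes (3.78%, 433 higher, 405 lower). With only genes at or above the median level 15 members were called (12 higher, 3 lower) and 2783 genes (1442 higher, 1341 lower). With genes above the 25th percentile 10 members were called, 9 of them higher (10.9%, beside 10.7% of the genes kept). With the trend 20 members were called (17 higher, 3 lower) and 2806 genes (1425 higher, 1381 lower). With every probe set tested 3 members were called and 0 lower (3.16%, beside 6.14% of all genes). At a threshold of 0.1 there were 13 members (13.7%, 12 higher), beside 2391 genes (10.8%, 1271 higher, 1120 lower). Without 1 array the members called ran from 0 to 1 (higher 0 to 1, lower 0 to 0) and the genes from 370 to 636 (higher 150 to 322, lower 220 to 316).

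The median change of the 95 genes stayed positive in all settings, from 0.05 to 0.10 without 1 array. Centring the arrays gave medians of 0.039 for complex I and 0.23 for its core, and repeated quantile normalization 0.25 for the core. Without 1 array the medians ran from 0.010 to 0.13 in complex I, 0.19 to 0.32 in its core, 0.07 to 0.14 in complex III, 0.06 to 0.11 in complex IV and 0.04 to 0.05 in the ATP synthase. Ldha lost its call with the replicate block (log2 change -0.59, adjusted p = 0.0734), and without 1 array its change ran from -0.73 to -0.45. None of the 78 genes named by set rules changed direction where it was called. Some without a call did change it: Atp5g3 kept its direction in 10 of 13 alternative settings and Cyc1 in 11. The cause of these differences was not tested. Differences of the 9 members below the floor were not interpreted. Of these, Atp5g1 had a log2 change of 0.32 (limma adjusted p = 0.0931) and is among the 13 members at a threshold of 0.1.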
